A study of Mus musculus with 48 samples.

Results

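The genes examined here are 10 genes of melanocytes and their pigment: Tyr, Tyrp1, Dct, Pmel, Mlana, Mitf, Oca2, Slc45a2, Mc1r and Asip. They were chosen by name, and their rows were taken from both deposited expression tables, which list 46983 genes each. Of the 10 symbols, 9 were found as written, and Asip was found by its gene identifier under its older symbol, a. The tables hold FPKM values, in which the fragments of a gene are divided by its transcript length and by all mapped fragments of the library, of whole tissue from C57BL/6 mice. The skin table covers the chin, ventral and dorsal domains at 6 stages of the hair cycle: competent telogen (CT, the first resting phase), early, mid and late anagen (EA, MA and LA, the phases of hair growth), catagen (C, regression) and refractory telogen (RT, the early second resting phase). Its 18 groups hold 43 libraries, with 2 libraries in 11 groups and 3 in 7. The ear table holds 2 libraries of telogen ear skin, 3 of the ear cartilage/muscle complex and 2 of dorsal competent telogen skin, whose columns have the same values as in the skin table. All groups are untreated tissue of the same strain, no age is given in the labels, and nothing in the labels says which libraries came from separate mice, so the p-values measure only the spread between these libraries.

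Melanin is made inside melanosomes, organelles related to lysosomes, and is handed to the keratinocytes of the growing hair shaft by melanocytes of the hair bulb. In the mouse, these follicular melanocytes make pigment during anagen, are lost or stop making it as the follicle regresses, and are renewed from melanocyte stem cells in the next cycle. Mitf is the transcription factor that directs the lineage, Tyr, Tyrp1 and Dct are the enzymes of melanin synthesis, Pmel forms the fibrils on which melanin is laid down, Mlana is a melanosomal membrane protein, and Oca2 and Slc45a2 are membrane transporters of the melanosome. Mc1r is the melanocortin receptor of the melanocyte, and Asip is the agouti protein, a secreted antagonist of that receptor made by the dermal papilla. The C57BL/6 strain carries the nonagouti allele of Asip.

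On GRCm38, in the GENCODE vM21 annotation, Tyr lies on chromosome 7 from 87424771 to 87493512 on the minus strand, Tyrp1 on chromosome 4 from 80834123 to 80851719 on the plus strand, Dct on chromosome 14 from 118012790 to 118052244 on the minus strand, and Pmel on chromosome 10 from 128704195 to 128720238 on the plus strand. The other members all lie on the plus strand: Mlana on chromosome 19 from 29697824 to 29708634, Mitf on chromosome 6 from 97807052 to 98021349, Oca2 on chromosome 7 from 56239760 to 56536518, Slc45a2 on chromosome 15 from 11000721 to 11029233, Mc1r on chromosome 8 from 123407107 to 123410744, and Asip on chromosome 2 from 154791402 to 155051012. Exons of Pmel overlap exons of Cdk2 and Dgka on the opposite strand, an exon of Mc1r overlaps Gm38092 on the opposite strand, and exons of Asip overlap exons of Raly on the same strand. The library kit does not mark the strand, so that reads of these stretches cannot be told apart, and the levels of Pmel, Mc1r and Asip are uncertain to that extent.

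Members that move together are of interest for what their promoters share, and the windows of 250 bases before to 50 bases after the annotated start were read for TCATGTG, the extended E-box known as the M-box of pigment genes, on both strands. RefSeq windows on GRCm38.p6 were at hand for 7 members, with 3 windows for Mitf. TCATGTG stood in the windows of Tyr, Tyrp1, Dct and Mc1r, and in 3.77% of 32851 promoter windows of all genes. The shorter CATGTG, which TCATGTG contains, was also in the Oca2 window and in 14.2% of all windows. CACGTG, the palindromic E-box, was in 7.15% of all windows and in none of these members' windows. A match is only a match of letters in this window. The 4 windows with TCATGTG are shown 5′ to 3′ on the strand of the gene, with CATGTG and TCATGTG in either direction in capitals. They are chr7:87493463-87493762 (minus strand), chr4:80833963-80834262 (plus), chr14:118052197-118052496 (minus) and chr8:123406832-123407131 (plus), and counted from the start site the TCATGTG match begins at -22 in Tyr, -47 in Tyrp1, -151 and, on the other strand, -232 in Dct, and -52 in Mc1r.
Tyr: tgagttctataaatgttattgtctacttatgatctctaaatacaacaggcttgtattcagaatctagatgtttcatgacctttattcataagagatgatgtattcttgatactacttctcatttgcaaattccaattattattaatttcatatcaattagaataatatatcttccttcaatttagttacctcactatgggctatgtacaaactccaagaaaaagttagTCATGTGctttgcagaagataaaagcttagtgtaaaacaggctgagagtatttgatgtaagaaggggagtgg
Tyrp1: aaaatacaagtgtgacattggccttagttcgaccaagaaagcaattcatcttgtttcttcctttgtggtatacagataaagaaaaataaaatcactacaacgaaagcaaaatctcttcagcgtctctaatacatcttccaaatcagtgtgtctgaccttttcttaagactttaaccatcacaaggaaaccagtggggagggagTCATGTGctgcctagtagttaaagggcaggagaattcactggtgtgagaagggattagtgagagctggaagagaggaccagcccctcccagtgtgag
Dct: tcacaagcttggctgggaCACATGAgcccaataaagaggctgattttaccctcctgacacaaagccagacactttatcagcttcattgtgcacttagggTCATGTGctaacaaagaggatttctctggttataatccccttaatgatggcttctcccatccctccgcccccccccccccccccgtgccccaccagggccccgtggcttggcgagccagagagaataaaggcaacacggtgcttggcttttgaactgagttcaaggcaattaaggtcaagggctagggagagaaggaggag
Mc1r: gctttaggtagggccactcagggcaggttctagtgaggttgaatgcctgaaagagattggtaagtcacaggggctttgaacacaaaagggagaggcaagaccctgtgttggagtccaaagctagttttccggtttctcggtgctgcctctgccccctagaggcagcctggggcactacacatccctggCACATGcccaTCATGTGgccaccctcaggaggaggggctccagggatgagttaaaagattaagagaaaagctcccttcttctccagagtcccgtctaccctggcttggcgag

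Some libraries stood apart from their labels, which bears on every comparison that follows. The 2 chin late anagen libraries and the 2 dorsal competent telogen libraries were as near to each other as replicates: their root mean square difference in log2(FPKM + 1) over 21257 genes was 0.425 to 0.454, against 0.455 between the 2 chin and 0.437 between the 2 dorsal libraries. Only 2 of 21257 genes (0.00941%) differed between these groups, against 454 or more between any other pair of the 18 groups, and 387 genes had an unadjusted p under 0.05. The 3 ventral early anagen libraries had low levels of proliferation genes (5 genes, summed 26.2 to 38.3 FPKM), at or below those of refractory telogen (37.3 to 52.6 FPKM), whereas all 7 competent telogen libraries, labelled as resting skin, had 143 to 329 FPKM. The part of these differences in the pigment gene levels was not tested. The 2 ventral refractory telogen libraries differed from each other by 0.668, as much as from the dorsal ones (0.663 to 0.695). One ventral catagen library, replicate 1, has a tissue location that names the ear, while its title and source name give ventral skin. Results that rest on these libraries are given with and without them where the design allows it. The 2 dorsal catagen libraries lay far from every other group. Their nearest group, ventral catagen, differed from them in 7519 genes (35.4%), whereas each other group had a nearest group at 25.6% or less. The dorsal catagen group was not left out as a whole. Estimated from the steps of the FPKM values, the libraries held 6710324 to 28836651 fragments with a median of 12716084, so that 1 fragment is worth 0.0193 to 0.0821 FPKM for a transcript of 2000 bases.

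Across the 43 skin libraries, 8 of the 10 genes shared 1 pattern. Tyr, Tyrp1, Dct, Pmel, Mlana, Oca2, Slc45a2 and Mc1r were lowest in the 7 refractory telogen and the 3 ventral early anagen libraries, and in each of these genes all 10 lay below all 33 other libraries. Over all genes tested, 1.64% showed such a gap in this direction. The split into 10 and 33 libraries follows the levels of these same genes, so this share is a description only. Mitf and Asip did not follow it, and their ranges in the 10 and the 33 libraries overlapped. In whole skin, fewer melanocytes and less RNA per melanocyte cannot be told apart.

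**Figure D1:**
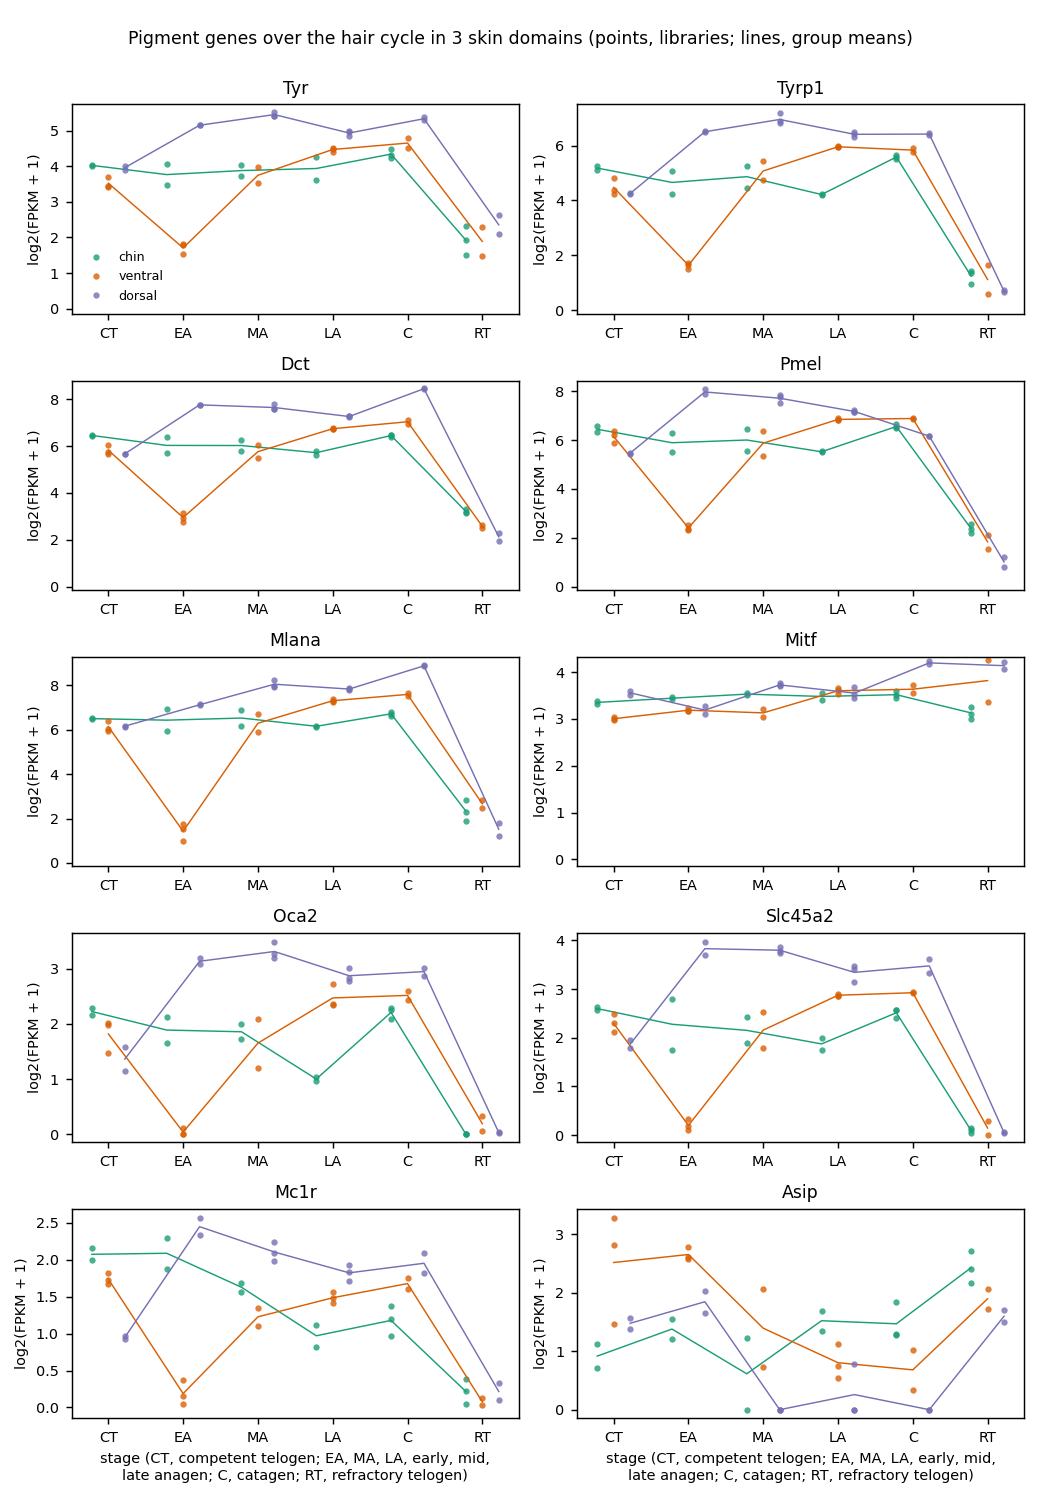
Level of each gene as log2(FPKM + 1) on the vertical axis at the 6 stages on the horizontal axis, with a point for each of the 43 skin libraries and a line through the group means of chin, ventral and dorsal skin. In 8 panels the refractory telogen points and the ventral early anagen points lie below all others, whereas Mitf stays between 6.83 and 18.3 FPKM throughout and the Asip points of the 10 libraries (1.82 to 5.86 FPKM) lie within the range of the other 33 (0 to 8.66 FPKM).

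Tyr, the enzyme of the first step of melanin synthesis, had its highest mean at dorsal mid anagen, 42.7 ± 2.2 FPKM (SD, n = 3), and its lowest at ventral early anagen, 2.28 ± 0.35 FPKM (SD, n = 3), a ratio of 18.7. Tyr in chin skin was, in FPKM, at 15.02 and 15.5 at competent telogen, 10.1 and 15.7 at early anagen, 15.2 and 12.3 at mid anagen, 11.3 and 17.99 at late anagen, 21.2, 17.9 and 18.8 at catagen and 1.86, 4.05 and 2.8 at refractory telogen. Tyr in ventral skin was at 9.77, 11.8 and 9.97 at competent telogen, 2.44, 1.88 and 2.52 at early anagen, 10.5 and 14.7 at mid anagen, 21.9, 21.5 and 20.02 at late anagen, 21.8 and 26.6 at catagen and 1.77 and 3.95 at refractory telogen. Tyr in dorsal skin was at 15.2 and 13.9 at competent telogen, 34.5 and 34.5 at early anagen, 41.8, 41.1 and 45.2 at mid anagen, 27.6, 30.4 and 30.5 at late anagen, 38.1 and 40.4 at catagen and 3.24 and 5.17 at refractory telogen. Chin skin stayed between 10.1 and 21.2 FPKM until refractory telogen, ventral skin dropped at early anagen and came back, and dorsal skin rose from competent telogen to early anagen and was above all chin and ventral libraries from then until catagen. In the 7 refractory telogen libraries Tyr stood at 1.77 to 5.17 FPKM. It was also at 1.54 to 2.16 FPKM in the ear cartilage/muscle complex, where Tyrp1, Dct and Mlana were listed at 0. Whether such a level limits the ratio of 18.7 was not tested.

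Tyrp1, which acts later in eumelanin synthesis, spanned a wider range, from a mean of 0.61 ± 0.042 FPKM at dorsal refractory telogen (SD, n = 2) to 124 ± 17 FPKM at dorsal mid anagen (SD, n = 3), a ratio of 203. Tyrp1 in chin skin was, in FPKM, at 36.96 and 33.6 at competent telogen, 17.96 and 32.5 at early anagen, 37.6 and 21.03 at mid anagen, 17.7 and 17.4 at late anagen, 44.9, 46.8 and 49.2 at catagen and 1.52, 0.94 and 1.67 at refractory telogen. Tyrp1 in ventral skin was at 19.7, 27.6 and 17.6 at competent telogen, 1.85, 2.16 and 2.31 at early anagen, 25.5 and 41.8 at mid anagen, 60.4, 62.9 and 60.2 at late anagen, 58.5 and 53.7 at catagen and 2.1 and 0.51 at refractory telogen. Tyrp1 in dorsal skin was at 17.8 and 18.2 at competent telogen, 88.7 and 90.99 at early anagen, 111, 117 and 143 at mid anagen, 78.4, 84.8 and 89.7 at late anagen, 83.3 and 85.9 at catagen and 0.58 and 0.64 at refractory telogen. All 3 dorsal mid anagen libraries were above every other library. Dorsal late anagen overlapped both early anagen and catagen, so that its place between them was not resolved. The 2 libraries of chin early anagen, chin mid anagen and ventral mid anagen each lay far apart.

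Dct, dopachrome tautomerase, reached its highest mean at dorsal catagen, 348 ± 8.6 FPKM (SD, n = 2), and its lowest at dorsal refractory telogen, 3.4 ± 0.71 FPKM (SD, n = 2). Dct in chin skin was, in FPKM, at 84.8 and 88.7 at competent telogen, 50.7 and 81.5 at early anagen, 76.3 and 53.7 at mid anagen, 48.8 and 54.5 at late anagen, 88.95, 83.6 and 86.6 at catagen and 8.04, 7.87 and 8.96 at refractory telogen. Dct in ventral skin was at 52.8, 65.1 and 49.9 at competent telogen, 7.81, 6.66 and 5.84 at early anagen, 43.4 and 65.1 at mid anagen, 107, 106 and 105 at late anagen, 123 and 138 at catagen and 5.21 and 4.74 at refractory telogen. Dct in dorsal skin was at 49.4 and 50.2 at competent telogen, 217 and 213 at early anagen, 189, 188 and 223 at mid anagen, 153, 149 and 155 at late anagen, 342 and 354 at catagen and 2.9 and 3.91 at refractory telogen. In chin skin, competent telogen and catagen overlapped, and in dorsal skin early and mid anagen overlapped. Dorsal catagen stood above every other library of the table.

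Pmel, the fibril protein, was highest at dorsal early anagen, 250.9 ± 26 FPKM (SD, n = 2). Pmel in chin skin was, in FPKM, at 93.9 and 78.96 at competent telogen, 44.5 and 76.6 at early anagen, 86.6 and 45.98 at mid anagen, 45.8 and 44.1 at late anagen, 89.4, 91.2 and 99.1 at catagen and 4.89, 4.1 and 3.6 at refractory telogen. Pmel in ventral skin was at 72.2, 82.6 and 57.3 at competent telogen, 4.72, 4.17 and 4.01 at early anagen, 40.3 and 82.2 at mid anagen, 113, 118 and 112 at late anagen, 116 and 118 at catagen and 3.38 and 1.9 at refractory telogen. Pmel in dorsal skin was at 42.6 and 43.8 at competent telogen, 269 and 233 at early anagen, 230, 218 and 182 at mid anagen, 149, 141 and 140 at late anagen, 71.3 and 70.05 at catagen and 0.73 and 1.34 at refractory telogen. Unlike Dct, Pmel at dorsal catagen lay below dorsal early, mid and late anagen, and also below chin and ventral catagen.

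Mlana had its highest mean at dorsal catagen, 466 ± 9.5 FPKM (SD, n = 2), and its lowest at ventral early anagen, 1.75 ± 0.70 FPKM (SD, n = 3). Mlana in chin skin was, in FPKM, at 91.5 and 86.7 at competent telogen, 59.98 and 120 at early anagen, 116 and 71.01 at mid anagen, 69.3 and 70.6 at late anagen, 96.3, 111 and 104 at catagen and 6.14, 2.71 and 3.83 at refractory telogen. Mlana in ventral skin was at 64.8, 83.2 and 61.02 at competent telogen, 1, 1.89 and 2.37 at early anagen, 57.7 and 102 at mid anagen, 163, 154 and 153 at late anagen, 183 and 198 at catagen and 4.61 and 6.15 at refractory telogen. Mlana in dorsal skin was at 70.98 and 69.3 at competent telogen, 141 and 135 at early anagen, 252, 242 and 296 at mid anagen, 231, 219 and 226 at late anagen, 473 and 459 at catagen and 2.53 and 1.32 at refractory telogen. In ventral skin all 3 early anagen libraries of Mlana were below both refractory telogen libraries, while Dct and Pmel lay the other way round and Tyr and Tyrp1 overlapped.

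The transporters had the lowest FPKM levels of the 7 melanosomal members (the 3 enzymes, Pmel, Mlana and the transporters). Oca2, which affects the ion balance of the melanosome, had group means up to 8.98 ± 1.1 FPKM (dorsal mid anagen, SD, n = 3) and was listed at 0 in all 3 chin refractory telogen libraries. Oca2 in chin skin was, in FPKM, at 3.47 and 3.89 at competent telogen, 2.13 and 3.38 at early anagen, 2.99 and 2.29 at mid anagen, 0.95 and 1.05 at late anagen, 3.9, 3.74 and 3.25 at catagen and 0 in all libraries at refractory telogen. Oca2 in ventral skin was at 2.94, 3.03 and 1.76 at competent telogen, 0, 0 and 0.08 at early anagen, 1.31 and 3.27 at mid anagen, 5.58, 4.06 and 4.12 at late anagen, 4.41 and 5.06 at catagen and 0.25 and 0.04 at refractory telogen. Oca2 in dorsal skin was at 2 and 1.2 at competent telogen, 8.13 and 7.47 at early anagen, 8.12, 8.66 and 10.2 at mid anagen, 7.09, 5.87 and 6.09 at late anagen, 7.11 and 6.35 at catagen and 0.03 and 0.01 at refractory telogen. The values at ventral early anagen and refractory telogen lie at or near what a few fragments give. Slc45a2 was highest at dorsal early anagen, 13.3 ± 1.8 FPKM (SD, n = 2). Slc45a2 in chin skin was, in FPKM, at 5.17 and 4.95 at competent telogen, 2.38 and 5.95 at early anagen, 4.35 and 2.69 at mid anagen, 2.38 and 2.97 at late anagen, 4.28, 4.91 and 4.96 at catagen and 0.03, 0.07 and 0.1 at refractory telogen. Slc45a2 in ventral skin was at 3.9, 4.59 and 3.32 at competent telogen, 0.25, 0.13 and 0.07 at early anagen, 2.45 and 4.76 at mid anagen, 6.48, 6.23 and 6.27 at late anagen, 6.54 and 6.65 at catagen and 0.22 and 0 at refractory telogen. Slc45a2 in dorsal skin was at 2.45 and 2.85 at competent telogen, 14.6 and 11.99 at early anagen, 13.6, 12.3 and 12.8 at mid anagen, 9.6, 10.1 and 7.9 at late anagen, 11.3 and 9.05 at catagen and 0.03 and 0.04 at refractory telogen. Both transporters stood higher in the dorsal libraries from early anagen to catagen than in any chin or ventral library.

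Mc1r, the receptor, was low throughout and differed from the melanosomal genes in its timing in chin skin. Mc1r in chin skin was, in FPKM, at 3.46 and 2.98 at competent telogen, 2.68 and 3.92 at early anagen, 1.96 and 2.23 at mid anagen, 1.17 and 0.77 at late anagen, 1.29, 1.6 and 0.95 at catagen and 0.17, 0.03 and 0.3 at refractory telogen. Mc1r in ventral skin was at 2.53, 2.3 and 2.19 at competent telogen, 0.29, 0.03 and 0.11 at early anagen, 1.15 and 1.55 at mid anagen, 1.95, 1.8 and 1.66 at late anagen, 2.03 and 2.38 at catagen and 0.09 and 0.02 at refractory telogen. Mc1r in dorsal skin was at 0.96 and 0.9 at competent telogen, 4.92 and 4.04 at early anagen, 2.97, 3.73 and 3.25 at mid anagen, 2.81, 2.27 and 2.56 at late anagen, 2.53 and 3.25 at catagen and 0.07 and 0.26 at refractory telogen. The chin libraries of competent telogen and early anagen were above those of late anagen and catagen, while Tyr was not. As a ratio of FPKM values, Mc1r over Tyr was 0.211 ± 0.027 at chin competent telogen and 0.258 ± 0.011 at chin early anagen against 0.067 ± 0.020 at chin catagen (SD, n = 2, 2 and 3). It was 0.224 ± 0.033 at ventral competent telogen (SD, n = 3) and 0.0913 ± 0.0028 at ventral catagen (SD, n = 2). At ventral early anagen, with Mc1r at 0.03 to 0.29 FPKM, it was 0.0595 ± 0.053 (SD, n = 3). Dorsal skin did not share the high ratio at competent telogen, with 0.0640 ± 0.0011 there, 0.130 ± 0.018 at early anagen and 0.0734 ± 0.00998 at catagen (SD, n = 2 each).

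Asip, the antagonist of Mc1r, was low in many of the libraries in which the pigment genes were high. Asip in chin skin was, in FPKM, at 1.17 and 0.64 at competent telogen, 1.94 and 1.3 at early anagen, 0 and 1.34 at mid anagen, 2.23 and 1.55 at late anagen, 2.59, 1.45 and 1.41 at catagen and 5.53, 3.5 and 4.3 at refractory telogen. Asip in ventral skin was at 6.05, 1.75 and 8.66 at competent telogen, 5.08, 5.86 and 4.97 at early anagen, 3.18 and 0.65 at mid anagen, 1.18, 0.46 and 0.67 at late anagen, 1.04 and 0.26 at catagen and 2.3 and 3.2 at refractory telogen. Asip in dorsal skin was at 1.6 and 1.98 at competent telogen, 2.15 and 3.1 at early anagen, 0 in all libraries at mid anagen, 0.71, 0 and 0 at late anagen, 0 in all libraries at catagen and 1.82 and 2.25 at refractory telogen. It was listed at 0 in all dorsal mid anagen and catagen libraries and in 2 of 3 dorsal late anagen libraries and was at 1.82 FPKM or more in each refractory telogen library. The 3 ventral competent telogen libraries spread from 1.75 to 8.66 FPKM.

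Mitf, the lineage factor, changed least: its group means lay between 7.03 ± 0.21 FPKM at ventral competent telogen (SD, n = 3) and 17.4 ± 0.60 FPKM at dorsal catagen (SD, n = 2). Mitf in chin skin was, in FPKM, at 9.5 and 8.96 at competent telogen, 10.02 and 9.75 at early anagen, 10.7 and 10.4 at mid anagen, 9.66 and 10.7 at late anagen, 9.88, 11.1 and 10.4 at catagen and 7.67, 8.61 and 7.04 at refractory telogen. Mitf in ventral skin was at 7.25, 7.01 and 6.83 at competent telogen, 8.45, 7.94 and 7.96 at early anagen, 7.28 and 8.26 at mid anagen, 11.3, 11.6 and 10.6 at late anagen, 10.7 and 12.2 at catagen and 18.3 and 9.36 at refractory telogen. Mitf in dorsal skin was at 10.4 and 11.2 at competent telogen, 8.65 and 7.64 at early anagen, 11.97, 12.2 and 12.6 at mid anagen, 9.84, 10.6 and 11.9 at late anagen, 16.9 and 17.8 at catagen and 17.5 and 15.8 at refractory telogen. At dorsal refractory telogen, with Tyrp1, Dct and Pmel at their lowest group means, Mitf was at 15.8 and 17.5 FPKM. The 2 ventral refractory telogen libraries, at 9.36 and 18.3 FPKM, lay far apart. Values per gene do not separate the Mitf transcripts, of which the melanocyte form is only 1, and Mitf is also used by other cells such as mast cells. The summed level of 5 mast cell markers was 24.3 to 24.4 FPKM at dorsal refractory telogen, 109 to 120 at ventral and 133 to 215 at chin refractory telogen, and their part in the Mitf level was not tested.

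The change from one stage to the next was tested with limma on log2(FPKM + 1), over the 21257 genes that reached 0.5 FPKM in 2 or more libraries, with Benjamini-Hochberg adjustment. Over all 6 stages, 9 of 10 members changed in chin skin, where 66.2% of all genes did, 10 in ventral skin (70.2% of all genes) and 10 in dorsal skin (68.5%), so that these counts stand against a background in which most genes change. In chin skin Mitf did not pass (adjusted p = 0.0523). Without the chin late anagen libraries the count in chin skin was 10, and without the 3 competent telogen groups the counts were 9, 10 and 10.

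The step shared by all domains was the fall from catagen to refractory telogen. In chin skin 9 members were lower (17.5% of all genes were) and Asip was higher (30.5%). In ventral skin 8 were lower (18.8%) and Asip higher (14.9%), and in dorsal skin 8 were lower (24.5%) and Asip higher (19.1%). The falls were large in dorsal skin, with -7.35 ± 0.29 on the log2 scale for Mlana (standard error, adjusted p = 2.55e-17), -6.32 ± 0.18 for Dct (adjusted p = 2.14e-20) and -5.73 ± 0.27 for Tyrp1 (adjusted p = 8.09e-16). The same genes fell by 4.38, 3.23 and 4.35 in chin skin and by 4.92, 4.46 and 4.72 in ventral skin. The dorsal step starts from the catagen libraries that lie far from every other group. The median change of the members was -2.42 in chin, -2.77 in ventral and -3.20 in dorsal skin, beside 0.09, -0.03 and 0.00 over all genes. Mitf fell by 0.39 in chin skin (adjusted p = 0.00941), a call lost without chin refractory telogen replicate 3 (adjusted p = 0.0535), and had changes of 0.18 and -0.06 in ventral and dorsal skin (adjusted p = 0.387 and 0.813). Asip is listed at 0 at dorsal catagen, so no fold is given there, and its rise in chin skin (0.96, adjusted p = 0.0247) did not pass with median-of-ratios scaling (0.83, adjusted p = 0.0534). In ventral skin its rise of 1.22 (adjusted p = 0.0290) was lost without ventral catagen replicate 2 (0.87, adjusted p = 0.241) or ventral refractory telogen replicate 2 (1.04, adjusted p = 0.148).

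In chin skin, no member passed between competent telogen and early anagen, where 2.14% of all genes did, and the changes ran from -0.55 for Pmel to 0.46 for Asip. Without chin early anagen replicate 2, Dct and Slc45a2 passed, which makes 2. From early to mid anagen, Mc1r alone fell, by 0.46 (adjusted p = 0.0378), beside 14.5% of all genes lower and a median shift of -0.16 over all genes, and this call was lost under a pseudocount of 0.1, without the filter, with median-of-ratios or quantile scaling, and without chin early anagen replicate 2 or either chin mid anagen library. From mid to late anagen, Oca2 fell by 0.86 (adjusted p = 0.00366) and Mc1r by 0.66 (adjusted p = 0.00281), with 12.3% of all genes lower. The count of 2 became 1 without chin mid anagen replicate 1 or chin late anagen replicate 2 and 5 without chin mid anagen replicate 2. From late anagen to catagen 5 members rose, beside 8.94% of all genes: Tyrp1 by 1.37, Oca2 by 1.21, Pmel by 1.04, Dct by 0.73 and Slc45a2 by 0.64. Without either chin late anagen library 3 passed, and Slc45a2 was lost in each leave-out. Both of these steps pass through the chin late anagen libraries that resemble dorsal competent telogen. Taken directly from mid anagen to catagen, without those libraries, Tyrp1 rose by 0.72 (adjusted p = 0.0367), Mc1r fell by 0.45 (adjusted p = 0.0240), and the other 8 did not pass.

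In ventral skin the members fell and rose again around early anagen. From competent telogen to early anagen 8 members were lower, against 29.3% of all genes, with changes from -1.55 for Mc1r to -4.70 ± 0.24 for Mlana (adjusted p = 1.85e-15). From early to mid anagen the same 8 were higher, against 16.8% of all genes, with changes from 1.04 for Mc1r to 4.86 ± 0.26 for Mlana (adjusted p = 2.00e-14), and Asip was lower (-1.26, adjusted p = 0.0102, 25.6% of all genes lower), though not without ventral mid anagen replicate 2 (-0.59, adjusted p = 0.369). Both steps rest on the 3 ventral early anagen libraries, whose matrix and shaft markers (9 genes) summed to 2970 to 3187 FPKM, the lowest of the 18 groups. From mid to late anagen 8 members were higher (12.6% of all genes), by 0.47 for Mitf to 1.01 for Mlana. This step rests on 1 library: without ventral mid anagen replicate 1, only Dct passed. From late anagen to catagen no member passed, where 5.93% of all genes did, and the changes lay between -0.12 and 0.30.

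In dorsal skin the rise came at early anagen. From competent telogen to early anagen 8 members were higher, against 35.2% of all genes, and Mitf was lower (-0.37, adjusted p = 0.0479, 8.24% of all genes lower). The rises ran from 0.96 for Mlana to 2.51 ± 0.26 for Pmel (adjusted p = 9.60e-09), where the median over all genes was 0.25. With median-of-ratios scaling, Mlana no longer passed (0.53, adjusted p = 0.162). Mitf did not pass in TPM (-0.17, adjusted p = 0.454), under the replicate block (adjusted p = 0.057), or without any 1 of the 4 libraries. This step starts from the dorsal competent telogen libraries that resemble chin late anagen. From early to mid anagen Mlana rose by 0.93 and Mitf by 0.54 (9.09% of all genes higher), and Asip went to 0 in all 3 libraries (30.1% of all genes lower). From mid to late anagen no member passed, where 2.68% of all genes did, with changes of -0.54 to 0.26.

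**Figure D2:**
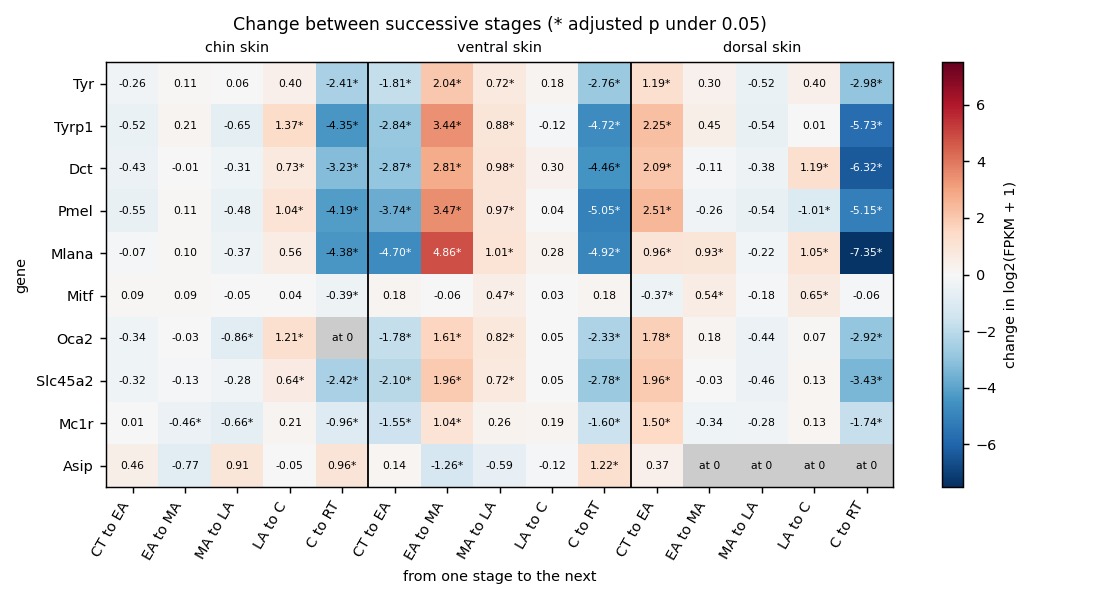
Change in log2(FPKM + 1) of each gene (rows) from each stage to the next (columns) in chin, ventral and dorsal skin, with red for a rise, blue for a fall, an asterisk for an adjusted p under 0.05 and grey where 1 of the groups is listed at 0. The columns from catagen to refractory telogen are blue in all domains for 8 genes, except that Oca2 is grey in chin skin. For the same genes the columns into early anagen are blue in ventral and red in dorsal skin.

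The change from competent telogen to early anagen differed between domains, as a contrast of the same fit. The dorsal change starts from the competent telogen libraries that resemble chin late anagen. The ventral change ends at the early anagen libraries with low proliferation genes. The ventral change was below the chin change in 8 members (18.9% of all genes), by 1.44 for Oca2 up to 4.63 for Mlana. The dorsal change was above the chin change in 7 members (26.1%), by 1.45 for Tyr up to 3.06 for Pmel. The dorsal change was above the ventral change in 8 members (39.2%), by 3.01 for Tyr up to 6.25 for Pmel, and below it for Mitf (-0.55, adjusted p = 0.0191, 10.4% of all genes lower), though not in TPM (-0.34, adjusted p = 0.225). Over all stages, the interaction of domain and stage passed for all 10 members, as it did for 73.3% of all genes, and did so without the ventral early anagen group, without the competent telogen groups, and without the chin late anagen and dorsal competent telogen groups.

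At dorsal catagen Dct and Mlana parted from Pmel, in 2 libraries that lay far from every other group. From late anagen to catagen in dorsal skin, Dct rose by 1.19 ± 0.16 (adjusted p = 7.15e-07), Mlana by 1.05 ± 0.26 (adjusted p = 0.00200) and Mitf by 0.65 ± 0.14 (adjusted p = 0.000345), while the change of Pmel was -1.01 ± 0.24 (adjusted p = 0.00107). These 4 calls held when any 1 of the 5 libraries was left out. Of the 10 members, 3 were higher and 1 lower, and Tyr, Oca2, Mc1r and Asip did not pass. The share of members called is near that of all genes, of which 38.7% changed at this step, 20.0% higher and 18.7% lower. Dct went from between 149 and 155 FPKM in the 3 late anagen libraries to 342 and 354 FPKM in the 2 catagen libraries, and Pmel from between 140 and 149 FPKM to 70.1 and 71.3 FPKM, with no overlap in either gene. Tyrp1 had a change of 0.01 and Slc45a2 of 0.13 (adjusted p = 1 and 0.687). The ratio of Mlana to Pmel was 6.60 ± 0.052 at dorsal catagen (SD, n = 2) and between 0.419 and 2.30 as the mean of each other group, and that of Dct to Pmel was 4.92 ± 0.18 at dorsal catagen and at most 3.45 ± 0.75 (dorsal refractory telogen, SD, n = 2) elsewhere. The 5 proliferation markers summed to 342 to 348 FPKM in these 2 libraries and to 227 to 236 FPKM at dorsal late anagen, but did not move as one, since Mki67 (22.9 against 7.04 FPKM), Top2a (116 against 32.9 FPKM) and Birc5 (107 against 68.8 FPKM) had higher means at catagen, and Cdk1 (60.5 against 75.5 FPKM) and Ccnb1 (38.8 against 46.4 FPKM) lower ones. For Mki67, Top2a and Birc5 these catagen means were the highest of the 18 groups, but not for Cdk1 and Ccnb1. The part of these markers in the pigment gene levels was not tested.

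**Figure D3:**
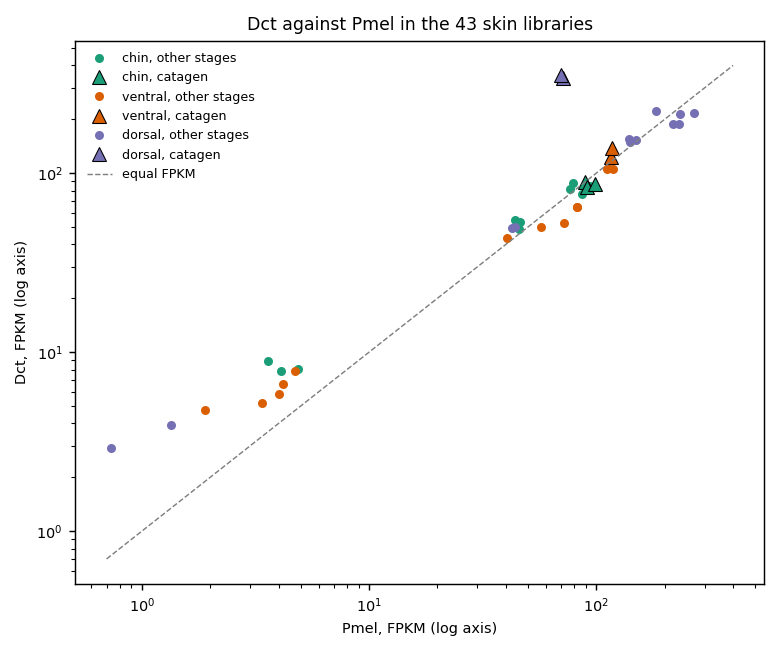
Dct level (vertical axis) against Pmel level (horizontal axis), both in FPKM on log axes, in the 43 skin libraries, coloured by domain, with triangles for catagen and a dashed line where both are equal. The 2 dorsal catagen triangles lie far above the line, at 342 and 354 FPKM of Dct for 71.3 and 70.1 FPKM of Pmel, and the other catagen triangles lie near it.

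At a given stage, the domains were compared in pairs. At competent telogen 8 members differed among the domains, beside 54.0% of all genes. The dorsal libraries of this stage are those that resemble chin late anagen. Dorsal skin was below chin skin in 6 members (27.5% of all genes lower), from -0.73 for Slc45a2 to -1.13 for Mc1r (adjusted p = 1.51e-06), where the median of all genes was -0.19, and Tyrp1 and Slc45a2 were no longer called with median-of-ratios scaling. Within chin skin, competent telogen against late anagen also called 6 members (37.9% of all genes in either direction). That count follows from the likeness of chin late anagen to dorsal competent telogen and says nothing about the domain. The part of the domain in the difference between dorsal and chin skin was not tested. Ventral skin was below chin skin for Tyrp1 (-0.71) and Dct (-0.63; 7.44% lower) and above it for Asip, by 1.60 (adjusted p = 0.00344, 15.5% higher), and the Tyrp1 and Asip calls were lost without chin competent telogen replicate 2 (-0.77 and 1.40, adjusted p = 0.101 and 0.0603). Dorsal skin was above ventral skin for Mitf (0.55, 9.89% of all genes higher) and below it in 4 members (38.0% lower), of which Mc1r (-0.79) was still called with median-of-ratios or quantile scaling and Pmel, Oca2 and Asip were not. At early anagen 9 members differed among the domains (51.6% of all genes). Dorsal skin was above chin skin in 6 members (16.7% of all genes higher), by 1.25 for Oca2 to 2.08 for Pmel, and Mlana, at 0.69, did not pass (adjusted p = 0.0751). Ventral skin was below chin skin in 8 members (19.8% lower) and above it for Asip (13.0% higher), which was lost without chin early anagen replicate 2 (1.10, adjusted p = 0.125). Dorsal skin was above ventral skin in 8 members (27.7% higher), by 2.26 for Mc1r to 5.69 for Mlana.

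At mid anagen all 10 members differed among the domains, beside 38.1% of all genes. Dorsal skin was above ventral skin in 9 members (16.1% of all genes higher) and below it for Asip (12.1% lower), and above chin skin in 8 (10.0% higher). Tyrp1 was higher in dorsal skin by 2.09 ± 0.24 than in chin skin (adjusted p = 5.80e-07) and by 1.88 ± 0.24 than in ventral skin (adjusted p = 1.16e-06). No member differed between ventral and chin skin, where 22.1% of all genes did. Without ventral mid anagen replicate 1, 8 members differed among the domains, and Mitf and Asip were no longer called. The Mc1r difference from chin skin was lost without chin mid anagen replicate 1 or dorsal mid anagen replicate 2 (0.41 in both).

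At late anagen 8 members differed among the domains (20.8% of all genes), and the difference lay with chin skin. Dorsal skin was above chin skin in 8 members (13.7% of all genes higher) and below it for Asip (5.78% lower), a call lost without either chin library, and ventral skin was above chin skin in 7 (9.62% higher), whereas between dorsal and ventral skin only Dct passed, by 0.52 (adjusted p = 0.0419, 1.67% higher), a call lost when any 1 of the 6 libraries was left out. The chin late anagen libraries are those that resemble dorsal competent telogen, so that without them only the dorsal and ventral comparison is left. At catagen 9 members differed (42.9% of all genes, and 9 also without the ventral library with the ear location). Dorsal skin was above chin skin in 8 members (21.3% higher), by 0.68 for Mitf to 2.16 for Mlana, and below it for Asip (20.0% lower), while Pmel, at -0.39, did not pass (adjusted p = 0.201). Against ventral catagen, dorsal skin was higher in 4 members (19.0% higher), by 1.41 for Dct, 1.29 for Mlana, 0.68 for Tyr and 0.56 for Mitf, and lower in Pmel (-0.72, adjusted p = 0.0314, 16.4% lower), the last a call lost when any 1 of the 4 libraries was left out. Without ventral catagen replicate 1, the library with the ear location, Tyr (0.54, adjusted p = 0.192) and Mitf (0.47, adjusted p = 0.0581) were not called either. Ventral catagen was above chin catagen in 3 members (2.23% higher), Dct, Mlana and Mc1r, all of which were lost without either ventral catagen library (0.42 to 0.93, adjusted p = 0.0879 to 0.25).

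At refractory telogen 4 members differed among the domains, a share near that of all genes (42.2%), and the count ran from 3 to 6 with 1 library left out. They were Dct, Pmel, Mlana and Mitf, and in the first 3 dorsal skin was below chin skin (27.2% of all genes lower), at -1.08 for Dct (adjusted p = 3.99e-06), -1.36 for Pmel (adjusted p = 4.05e-05) and -0.82 for Mlana (adjusted p = 0.0157). The Mlana call was lost with median-of-ratios scaling (-0.63, adjusted p = 0.0632) and without chin refractory telogen replicate 1 (-0.56) or dorsal refractory telogen replicate 2 (-0.51). Mitf was above chin skin by 1.01 ± 0.14 in dorsal skin (adjusted p = 1.02e-06, 7.61% of all genes higher) and by 0.69 in ventral skin (adjusted p = 0.000285, 6.06% of all genes higher), the latter a call lost without ventral refractory telogen replicate 1 (0.24, adjusted p = 0.0638). Pmel and Mlana were also below ventral skin in dorsal skin (8.10% of all genes lower), whereas Dct, at -0.45, did not pass (adjusted p = 0.0936). Dct was below chin skin in ventral skin (-0.64, adjusted p = 0.00318, 24.7% of all genes lower). The Mlana call against ventral skin was lost without replicate 2 of either domain (-0.97 and -0.84) and the Pmel call without replicate 1 of either (-0.53 and -0.61).

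Among the 7 melanosomal members, the group means on the log2 scale moved together. Since the 4 low groups stand apart, the correlations are given over the other 14 group means. Pearson's r across the 21 pairs was 0.550 to 0.975 with a median of 0.897. For Mc1r with the 7 it was 0.469 to 0.742, for Mitf 0.0222 to 0.760 and for Asip -0.789 to -0.298. These points share their libraries and are a description only.

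Other genes of the pathway, listed apart from the members, fell into those that followed the pigment genes and those that did not. Of 12 melanosome and transport genes, 7 fell from catagen to refractory telogen in chin skin and 8 in each of the other domains, beside 17.5%, 18.8% and 24.5% of all genes in chin, ventral and dorsal skin. Their medians at this step were -0.44, -0.66 and -0.81, where the medians of all genes were 0.09, -0.03 and 0. Trpm1, a melanocyte ion channel, fell by 4.14, 3.88 and 4.39, Slc24a5, an ion exchanger of pigment cells, by 2.98, 2.58 and 5.10, and Gpnmb, a relative of Pmel, by 3.97, 4.30 and 3.61. Mfsd12, which is needed for pheomelanin, rose by 1.15, 0.57 and 0.48. The small GTPase Rab27a, which carries melanosomes and other granules, rose in chin skin by 1.03, had a change of 0.12 in ventral skin that did not pass, and fell in dorsal skin by 1.78. At the step into early anagen, 5 of the 12 were lower in ventral skin (29.3% of all genes), and 7 were higher (35.2%) and 2 lower (8.24%) in dorsal skin.

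Of the 4 lineage regulators and receptors, 2 fell from catagen to refractory telogen in chin skin, where Sox10 rose, and 3 in each of the other domains, beside the same shares of all genes lower (17.5%, 18.8% and 24.5%) and 30.5% higher in chin skin. Kit, the receptor for stem cell factor, fell by 0.82, 0.98 and 1.55 in chin, ventral and dorsal skin, and Ednrb, the endothelin receptor, by 0.54, 0.73 and 4.08. Sox10, which acts upstream of Mitf and is also present in Schwann cells, had its highest group means at ventral early anagen, 8.17 ± 1.0 FPKM (SD, n = 3), and dorsal early anagen, 8.14 ± 1.2 FPKM (SD, n = 2). In these groups the sum of the 6 Schwann cell markers was also highest, at 417 to 445 and 337 to 374 FPKM. S100b, 1 of the 6, did not follow the sum in dorsal skin, with a mean of 3.1 FPKM at early anagen and 4.3 FPKM at competent telogen. The part of these markers in the Sox10 level was not tested. Kitl, the ligand of Kit, rose by 2.26 and Edn3, the ligand of Ednrb, by 2.17 from competent telogen to early anagen in dorsal skin. Of the 7 signals tested, 2 were higher and 1 lower there, which is near the shares of all genes (35.2% higher and 8.24% lower). At the same step the Kitl mean went from 13.2 to 13.7 FPKM in ventral and from 21.8 to 14.7 FPKM in chin skin. The Edn3 mean went from 1.3 to 0.45 FPKM in ventral and from 1.5 to 0.97 FPKM in chin skin. Of 12 genes that assemble lysosome-related organelles, none passed at that step in chin skin, 3 were lower in ventral skin and 3 higher in dorsal skin, where 29.3% of all genes were lower and 35.2% higher, so that these counts show nothing particular to the list.

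Over all 18 group means, the genes most alike to the 7 melanosomal members were taken as those with the highest Pearson's r to the mean of their scaled log2 levels, among 14565 genes. They were Gpr143 (0.987), Trpm1 (0.9804), Slc24a5 (0.976), Syt4 (0.975), Ptgds (0.962), Rpf2 (0.962), Nif3l1 (0.954), Slc39a10 (0.953), Dkc1 (0.951) and Kpna2 (0.950). Over the 14 groups without the low ones, the same genes had r from 0.748 (Slc39a10) to 0.971 (Gpr143). Gpr143 is the melanosomal receptor of ocular albinism and had its highest group mean at dorsal mid anagen, 7.18 ± 0.62 FPKM (SD, n = 3).

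The hair follicle itself was read from marker lists. Melanocyte markers (8 genes, of which 6 are members and the others are Sox10 and Kit) summed to 31.8 to 42.7 FPKM in the refractory telogen and ventral early anagen libraries and to 191 FPKM or more in all others. The anagen matrix and shaft markers summed to 3903 to 5585 FPKM at chin refractory telogen but to 10483 to 13511 FPKM at ventral and 10981 to 11037 FPKM at dorsal refractory telogen, while the sum of the melanocyte markers was as low there as in chin skin. Mitf, which is in this sum, had means of 16.65 FPKM at dorsal, 13.8 FPKM at ventral and 7.77 FPKM at chin refractory telogen. Tyrp1, Dct, Pmel and Mlana had lower means at dorsal than at chin refractory telogen, and Tyr a higher one. Proliferation markers were at 26.2 to 52.6 FPKM in the 10 libraries and at 133 FPKM or more in the others. The part of either list in the pigment gene levels was not tested.

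**Figure D4:**
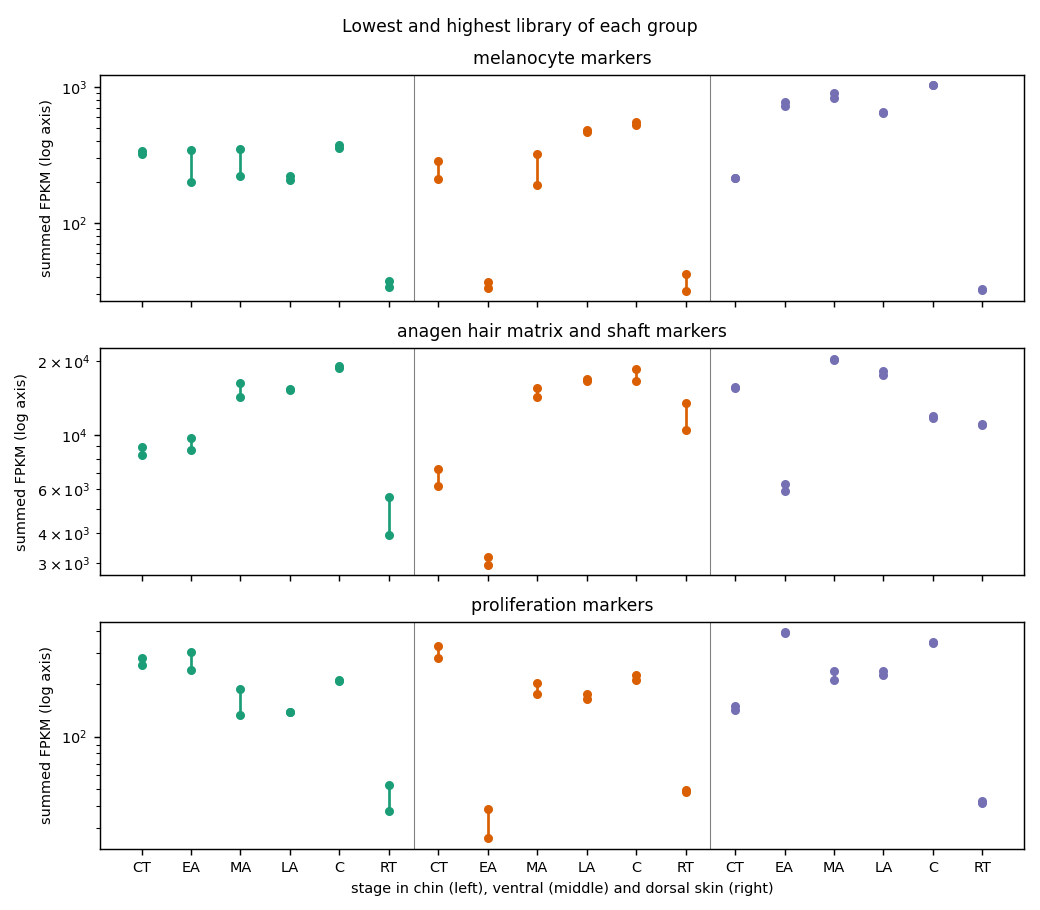
Summed FPKM on log axes of 8 melanocyte, 9 anagen matrix and shaft, and 5 proliferation markers in each of the 18 groups, with points for the lowest and the highest library of a group joined by a line. Melanocyte and proliferation markers drop together at refractory telogen and at ventral early anagen, while the matrix and shaft markers at ventral and dorsal refractory telogen lie between 10483 and 13511 FPKM.

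The ear table asked how telogen ear skin and the underlying ear cartilage/muscle complex differ from dorsal skin. The dorsal libraries in it are those labelled competent telogen that resemble chin late anagen. Ear skin was tested against them over 19299 genes, of which 44.7% were higher and 14.6% lower in ear skin, with a median of 0.33 over all genes. In ear skin 2 members were higher and 5 lower. Tyr was at 4.18 and 4.93 FPKM in ear skin against 15.2 and 13.9 FPKM in dorsal skin, a difference of -1.49 ± 0.14 on the log2 scale (adjusted p = 0.000251). Mitf was at 3.91 and 3.55 FPKM against 10.4 and 11.2 FPKM (-1.32 ± 0.11, adjusted p = 0.000143). Dct (-0.44), Mlana (-0.49) and Slc45a2 (-0.60) were lower as well.

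In the FPKM values as given, not all pigment genes were lower in ear skin. Tyrp1 was at 19.5 and 18.8 FPKM against 17.8 and 18.2 FPKM, a difference of 0.08 that did not pass (adjusted p = 0.383), and Oca2 and Mc1r did not pass either (-0.41 and 0.27, adjusted p = 0.0948 and 0.426). These differences stand beside the median of 0.33 over all genes, and their sizes were not followed under other scalings. Pmel was at 62.6 and 53.1 FPKM against 42.6 and 43.8 FPKM (0.41, adjusted p = 0.0250), but this direction turned with the scaling and was -0.08 with median-of-ratios scaling (adjusted p = 0.589), and the call was lost without either dorsal library. Asip was at 7.57 and 8.60 FPKM against 1.60 and 1.98 FPKM, a difference of 1.70 ± 0.11 (adjusted p = 5.71e-05). In ear skin the proliferation markers summed to 105 to 109 FPKM and the matrix and shaft markers to 108 to 113 FPKM. Each marker of both lists had a higher mean in the dorsal libraries. The gap was widest in the matrix and shaft list, as in Krt34 (956 against 2.7 FPKM in ear skin) and Tchh (2074 against 10.2 FPKM). The part of these markers in the differences of the pigment genes was not tested. Sox10, at 7.64 ± 1.6 FPKM, was above dorsal skin by 1.67, and the Schwann cell markers were at 582 to 618 FPKM against 160 to 162 FPKM.

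In the ear cartilage/muscle complex, Tyrp1, Dct, Mlana, Slc45a2 and Asip were listed at 0 in all 3 libraries. All 10 members were lower than in ear skin, beside 38.5% of all genes, and 9 were lower than in dorsal skin (28.3% of all genes). Tyr was still listed, at 2.16, 1.54 and 2.12 FPKM, and Mitf at 2.55, 3.21 and 2.88 FPKM, while Pmel was at 0.17 to 0.38 FPKM. Against ear skin, the difference was -0.92 ± 0.13 for Tyr (adjusted p = 0.000974) and -0.29 ± 0.099 for Mitf (adjusted p = 0.0415), the latter a call that was lost without the filter on low values and under the scaling by the median of ratios or by quantiles. The 4 cartilage markers found summed to 315 to 363 FPKM in this tissue and to at most 0.91 FPKM in ear skin, and 7 of 9 matrix and shaft markers were at 0.

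**Figure D5:**
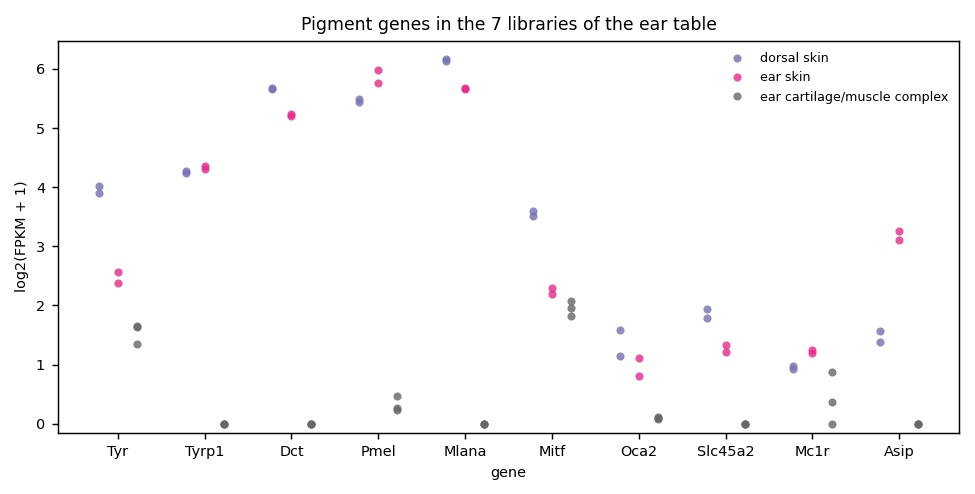
Level of each gene as log2(FPKM + 1) (vertical axis) in the 7 libraries of the ear table, coloured by tissue, with 1 point for each library. The Tyrp1 points of ear and dorsal skin lie close together, Tyr and Mitf are lower and Asip is higher in ear skin, and the cartilage/muscle complex is at 0 for 5 genes.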

How the data were processed

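The skin of 3 domains at 6 stages and 2 tissues of the ear were measured by RNA-seq in 48 libraries of C57BL/6 mice. The authors made full-length cDNA libraries without strand marks, sequenced paired ends, aligned them to mm10 with GENCODE vM8 genes, quantified them with RSEM 1.2.25 and corrected for batches that are not named in the sources used here, and the deposited FPKM values are theirs. Such values keep neither counts nor batches, so no count model was used, and the depth was only estimated from the steps of the low values, which the batch correction may blur. Samples were grouped by their labels.

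Genes that reached 0.5 FPKM in 2 or more libraries were tested on log2(FPKM + 1) with limma 3.58.1 (R 4.3.3) with a variance trend, 1 fit for the 43 skin libraries in 18 groups and 1 for the 7 libraries of the ear table, with Benjamini-Hochberg adjustment over all genes tested and a threshold of 0.05. The pseudocount of 1 makes changes of low genes smaller than their folds. The tables were tested separately, since they may have been normalised separately. The scripts were tested on simulated data. All 10 members are named, and of each other list at most the 2 genes with the largest change in each direction among those that passed, together with their values at the other steps described. Mki67 was named after its values were seen. The members and lists were chosen with earlier results of these data known. Figures used Python 3.11.15 and matplotlib 3.10.9. Alternatives were a pseudocount of 0.1, no filter, at least 5 FPKM, TPM, median-of-ratios and quantile scaling, no variance trend, the replicate block, and each library left out. The alternatives without whole groups, and the chin step without late anagen, were chosen after seeing the data.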

Additional observations from a re-analysis of the deposited data

Results flagged for a closer look

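The stage course of all 10 genes differed between chin, ventral and dorsal skin by the interaction of domain and stage in limma, as it did for 73.3% of all genes. The adjusted p was 6.24e-09 for Tyr, 5.48e-13 for Tyrp1, 1.37e-16 for Dct, 1.31e-14 for Pmel, 3.75e-14 for Mlana, 1.57e-05 for Mitf, 8.17e-12 for Oca2, 1.44e-11 for Slc45a2, 3.4e-12 for Mc1r and 0.00219 for Asip. The size is seen at the step from competent telogen to early anagen, where Dct had a change of -0.43 in chin, -2.87 in ventral and 2.09 in dorsal skin. At this step the dorsal change starts from libraries that resemble chin late anagen. The ventral change ends at libraries with low proliferation genes.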

How the results depend on the processing

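Of 444 counts of members under an alternative, 427 stayed within 1.5 times the reported count. From early to mid anagen in chin skin the count of 1 became 0 with a pseudocount of 0.1, no filter, at least 5 FPKM, median-of-ratios or quantile scaling. From mid to late anagen in chin skin the count of 2 became 1 with a pseudocount of 0.1 or at least 5 FPKM. With 1 library left out, the counts ran from 0 to 2 at the chin step from competent telogen to early anagen, from 0 to 1 from early to mid anagen, from 1 to 5 from mid to late anagen and from 3 to 4 from late anagen to catagen, and from 1 to 8 at the ventral step from mid to late anagen. Of 2928 values of single genes under an alternative, 2747 kept their direction and side of the threshold, 180 kept the direction but no longer passed (109 of them with 1 library left out), and 1 reversed: Pmel in ear skin against dorsal skin, 0.41, was -0.076 with median-of-ratios scaling (adjusted p = 0.589). The cause was not tested.

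With the replicate block, all 25 skin counts stayed within 1.5 times the reported count, and 3 single calls were lost: Mitf at the dorsal step into early anagen (adjusted p = 0.057), and Mlana and Mc1r in ventral over chin catagen (adjusted p = 0.0618 and 0.0576). Same-numbered libraries did not deviate together, with correlations of -0.174 to 0.162 over 327 pairs and a median of 0.003. The values were already corrected for batches, and the deviations were taken within groups of 2 or 3 libraries. These correlations therefore cannot decide whether same-numbered libraries came from the same mice. The ear table was not fitted with a block.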
